A study of Mus musculus with 9 samples.

Results

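The genes described here encode the enzymes and adaptors of lysine acetylation: 11 zinc-dependent histone deacetylases, 7 sirtuins, 9 acetyltransferases, 3 nuclear receptor coactivators, 3 corepressor scaffolds and 2 readers of acetylated histones. They were taken by symbol from the count table of a mouse hypothalamus RNA-seq study. All 35 symbols were found, each in 1 entry of the 54532 genes in the table. All 35 also passed the filter on low counts, which left 17546 genes for testing.

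The study compared 3 groups of 3 libraries from wild-type male ICR mice, an outbred stock, on postnatal day 21. LP pups received PBS, and their dams ate a low-fat diet in which fat supplied 10% of the calories. HP pups received PBS, and their dams ate a diet high in fat and sucrose, with 45% of the calories from fat. HA pups had dams on the same diet as HP and received 4-PBA. All pups were given 1 peripheral injection a day from postnatal day 4 until day 16, and tissue was taken several days after the last one. Dams were put on their diet when 5 weeks old, mated after 5 weeks on it, and kept to it while pregnant and nursing litters of 10 pups. No group combined the low-fat diet with 4-PBA. Sample titles carry a code of unstated meaning: Lg42 and Lg63 in LP, and Hg43 and Hg13 in both HP and HA. Where LP is one side of a comparison, code and diet cannot be told apart. Whether the pups of a group had different mothers is not stated, and a p-value here reflects only how these libraries scatter, including any technical part.

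Acetyl groups on histone lysines loosen chromatin and serve as docking sites for bromodomain proteins. Acetyltransferases add them from acetyl-CoA, zinc-dependent deacetylases and the NAD-dependent sirtuins remove them, and corepressor scaffolds bring the deacetylases to genes. 4-PBA is known both as a chemical chaperone for protein folding and as an inhibitor of zinc-dependent histone deacetylases, which makes the transcripts of these enzymes a natural group to follow. Read counts measure transcripts, and neither enzyme activity nor acetylation was measured in the data used here.

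Total counts lay between 18226924 and 21823961 per library. Hypothalamic markers (12 genes, among them Agrp, Pomc and Hcrt) were present in every library, with a summed level of 1112 to 1455 CPM, the count of a gene scaled to a common library size. Single markers were less even, as in Hcrt and Pomc, picked after the values were seen. Hcrt was at 59.8, 51.4 and 54.3 CPM in HP replicate 2, HA replicate 2 and HA replicate 3, against 91.8 to 153 CPM elsewhere. Pomc was at 79.3, 85.9 and 87.5 CPM in those libraries, against 48.3 to 63.5 CPM elsewhere. Whether the part of the hypothalamus sampled differed was not tested. Markers of other cell types were also uneven between libraries. The summed CPM of 8 meningeal fibroblast markers was 458 in LP replicate 3 and 987 in HA replicate 3, against 68.2 to 136 in the other libraries, and the matrix gene Dcn stood at 45.4 and 124 CPM there. The sum of 8 striatal neuron markers was 276 and 370 in LP replicates 1 and 2, against 145 to 161 elsewhere, with the adenosine receptor gene Adora2a at 15.7 and 23.6 CPM. The neuronal gene Snap25 lay between 921 and 1089 CPM. In whole tissue, fewer cells of a type and less RNA per cell cannot be told apart.

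Promoter sequences were found in RefSeq (GRCm38.p6) for 29 of the 35 genes. Windows ran from 250 bases before to 50 bases after an annotated start, 300 bases in all. The motif counted was the dinucleotide CG, which reads the same on both strands, because CG-rich promoters are the usual type of broadly expressed genes. Taking for each gene the start with most CG, the median number was 24 per window in these genes, against 8 over 27018 genes. At least 10 CG were present in 93.1% of the 29 genes and in 45.8% of the 27018, a minimum chosen after the distribution was seen. The 27018 were not limited to genes that passed the filter on low counts, as all of the 29 did. The sequences below show the upstream stretch of the 3 genes with the smallest unadjusted p in any comparison, and the CG-free start of Hdac9 for contrast, a choice made after the values were seen. They are written 5′ to 3′ along the strand of the gene with each CG in capitals.
Hdac2: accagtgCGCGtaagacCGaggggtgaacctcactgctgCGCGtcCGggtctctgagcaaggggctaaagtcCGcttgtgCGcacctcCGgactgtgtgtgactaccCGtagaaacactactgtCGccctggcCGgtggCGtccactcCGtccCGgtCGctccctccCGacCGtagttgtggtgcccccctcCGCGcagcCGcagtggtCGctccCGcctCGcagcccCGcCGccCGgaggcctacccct
Sirt5: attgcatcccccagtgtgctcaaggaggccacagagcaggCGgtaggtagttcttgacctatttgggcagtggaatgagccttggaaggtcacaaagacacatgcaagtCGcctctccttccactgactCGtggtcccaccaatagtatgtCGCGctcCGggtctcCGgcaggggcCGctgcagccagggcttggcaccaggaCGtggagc
Ncoa1: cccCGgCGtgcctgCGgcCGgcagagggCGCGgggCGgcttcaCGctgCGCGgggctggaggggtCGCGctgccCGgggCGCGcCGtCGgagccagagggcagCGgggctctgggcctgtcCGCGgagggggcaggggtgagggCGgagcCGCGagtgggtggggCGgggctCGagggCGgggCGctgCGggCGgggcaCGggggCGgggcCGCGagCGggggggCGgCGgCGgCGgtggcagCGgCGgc
Hdac9: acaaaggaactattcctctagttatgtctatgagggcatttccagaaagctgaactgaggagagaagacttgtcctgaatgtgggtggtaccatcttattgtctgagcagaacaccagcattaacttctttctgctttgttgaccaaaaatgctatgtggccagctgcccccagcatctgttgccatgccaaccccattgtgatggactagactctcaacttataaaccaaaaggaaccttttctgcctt
The Hdac2 stretch (chr10:36974294-36974543, plus strand) ends at the base before the annotated gene start and holds 27 CG. The Sirt5 stretch (chr13:43365285-43365495, plus strand) stops at the base before the annotated exon and holds 9 CG in 211 bases. The Ncoa1 stretch (chr12:4477183-4477432, minus strand) is the richest of the 4, with 40 CG in 250 bases. The Hdac9 stretch (chr12:34917096-34917345, minus strand) holds 0 CG, and the second annotated start of Hdac9 has 3 CG in its window. None of the 4 stretches overlaps an annotated exon. These counts are descriptions of sequence and were not tied to any measurement of binding or methylation.

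Levels of different genes were compared as deposited FPKM, which divides counts by gene length and library size. The 35 genes spanned a wide range, from Sirt2 at 77.0 ± 6.90 FPKM (SD, n = 9) down to Hdac10 at 1.84 ± 0.183 and Sirt5 at 1.81 ± 0.200 FPKM. Their median was 6.26 FPKM against 4.48 FPKM over all genes tested, and 26 of the 35 lay above that value. Ordered by level, 12 of the 34 neighbouring pairs stood apart, in that the mean ± SD ranges over 9 libraries did not overlap. Sirt2 and Hdac11 led the order and overlapped each other, and Brd2, Kat5 and the pair of Hdac3 and Hdac2 followed, each step apart from the next. The place of Kat5 depends on its deposited gene length, as described below. From Sirt3 down to Crebbp, 15 genes ran between 8.05 and 4.23 FPKM without a break.

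**Figure D1:**
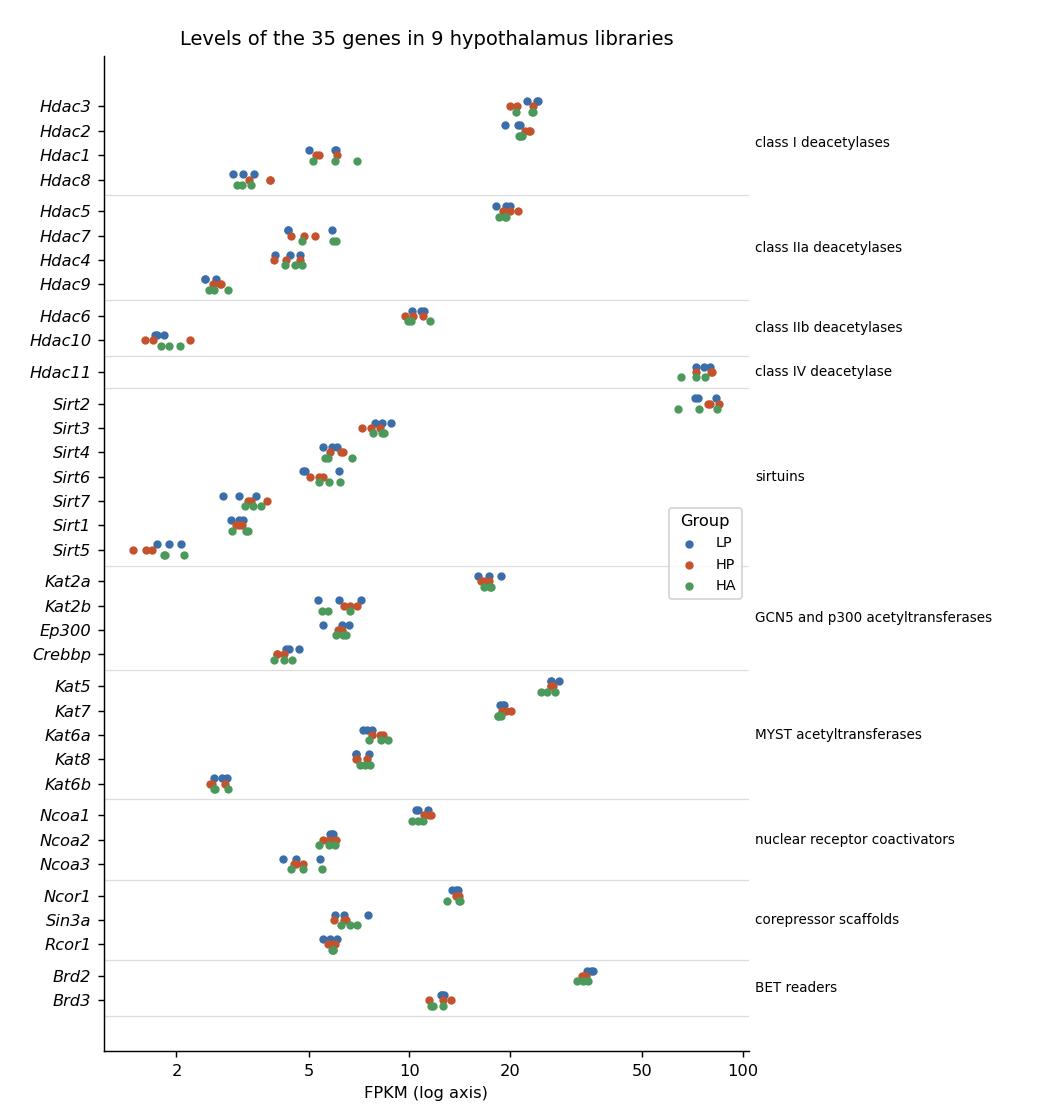
Deposited FPKM of the 35 genes (log axis) in the 9 hypothalamus libraries, 1 point per library, coloured by group and ordered by role. Sirt2 and Hdac11 stand at 63.9 FPKM or more in every library, and the colours of the groups are mixed for most genes.

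Among the class I deacetylases, Hdac3, the catalytic subunit of the NCoR complexes, was at 22.6 ± 1.56 FPKM (SD, n = 9). Hdac2, a catalytic subunit of the NuRD, SIN3 and CoREST complexes, was at a level within its spread of Hdac3, 21.6 ± 1.10 FPKM. Hdac1, which shares those complexes with Hdac2, was at 5.74 ± 0.632 FPKM, below Hdac2 in every library. The Hdac1 level is uncertain, because 31.7% of its 50-base stretches also occur in the gene model Gm10093, which had a mean count of 164 per library. Hdac8, a deacetylase that acts on cohesin, was the lowest of the class at 3.33 ± 0.305 FPKM.

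Class IIa enzymes bind MEF2 transcription factors and leave the nucleus when phosphorylated. Hdac5 led them at 19.5 ± 0.896 FPKM (SD, n = 9). Hdac7 stood at 5.07 ± 0.698 FPKM, Hdac4 at 4.38 ± 0.311 FPKM and Hdac9 at 2.604 ± 0.140 FPKM. Of class IIb, the tubulin deacetylase gene Hdac6 was at 10.5 ± 0.609 FPKM, and Hdac10, whose product acts on polyamines, at 1.84 ± 0.183 FPKM. Hdac11, the single class IV member and a lysine deacylase, was at 75.3 ± 5.08 FPKM, higher in every library than any other zinc-dependent deacetylase.

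The sirtuins were dominated by Sirt2, a mainly cytosolic deacetylase known to be abundant in myelinating oligodendrocytes. The mitochondrial deacetylase gene Sirt3 followed at 8.05 ± 0.469 FPKM (SD, n = 9), and the mitochondrial Sirt4 at 5.97 ± 0.388 FPKM. The chromatin-bound Sirt6 was at 5.44 ± 0.514 FPKM, the nucleolar Sirt7 at 3.32 ± 0.286 FPKM and the nuclear Sirt1 at 3.09 ± 0.128 FPKM. Sirt5, a mitochondrial enzyme that removes succinyl and malonyl groups, overlapped Hdac10 at the low end of the order. Its mean was above that of Hdac10 in LP (1.90 against 1.77 FPKM), below it in HP (1.60 against 1.83 FPKM) and level with it in HA (1.93 against 1.91 FPKM). Reads of Sirt3 cannot be separated from those of Ric8a and Psmd13 where exons overlap on the opposite strand, since the library kit is not described as stranded.

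In deposited FPKM, acetyltransferase transcripts were led by Kat5, the TIP60 enzyme of the NuA4 complex, at 26.6 ± 0.889 FPKM (SD, n = 9). The deposited length of Kat5 is 2008 bases, and its extent differs from that in the GENCODE M21 annotation. Its level, its first place and the sum over acetyltransferase genes below depend on that length. In GENCODE M21, exons of Kat5 overlap Rnaseh2c on the other strand over 12.1% of their length. Part of the Kat5 level may therefore belong to that gene, or shared reads may be missing from it. Kat7, the HBO1 enzyme, was at 19.0 ± 0.546 FPKM and Kat2a, the GCN5 enzyme of SAGA, at 17.2 ± 0.827 FPKM. The remaining 6 acetyltransferase genes lay between Kat6a at 7.90 FPKM and Kat6b at 2.68 FPKM, with the CBP gene Crebbp at 4.23 and its paralogue Ep300 at 6.20 FPKM. Summed over the 9 acetyltransferase genes, the level was 96.2 to 98.2 FPKM per library, and summed over the 11 zinc-dependent deacetylases it was 162 to 181 FPKM. The ratio of the sums stayed between 0.542 and 0.596. The acetyltransferase sum was 96.2, 96.8 and 96.6 FPKM in HA replicates 1 to 3, just under the 97.2 to 98.1 FPKM of LP and the 97.4 to 98.2 FPKM of HP. The sums of the 11 zinc-dependent deacetylases overlapped between the groups. Among smaller sums, that of the 4 class IIa deacetylases was 30.4 to 31.2 FPKM in LP, just under the 31.4 to 32.6 FPKM of HP, and HA overlapped both. The sum of the BET readers Brd2 and Brd3 was 46.70 to 48.3 FPKM in LP, above the 43.6 to 46.0 FPKM of HA and just above the 44.5 to 46.69 FPKM of HP. Sums whose groups stood apart were picked out after all were seen. For single genes over all tested, groups lay without overlap upward and downward in 5.93% and 5.83% for HP against LP. These shares were 5.92% and 5.89% for HA against HP, and 5.4% and 5.51% for HA against LP. No p-value is given for any sum, since the members were chosen with results known.

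Of the coactivators that bind nuclear receptors, Ncoa1 was at 10.9 ± 0.492 FPKM (SD, n = 9), about the level of Hdac6, and Ncoa2 and Ncoa3 were at 5.76 and 4.74 FPKM. The scaffold gene Ncor1 was at 13.8 ± 0.383 FPKM, above the SIN3 scaffold Sin3a at 6.49 FPKM and the CoREST gene Rcor1 at 5.85 FPKM. The BET reader gene Brd2 was at 33.8 ± 1.11 FPKM, and Brd3 at 12.3 ± 0.610 FPKM. Exons overlap a gene of the opposite strand in Ncoa3 (Sulf2, 1.95% of exon length) and Brd2 (H2-DMa, 4.60%).

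Most of the 35 genes varied little between libraries. Their coefficient of variation in CPM over the 9 libraries had a median of 5.71%, from 2.75% in Rcor1 and 2.82% in Ncor1 to 13.7% in Hdac7. Over all genes tested the median was 9.60%, and over the 11829 genes with at least the mean CPM of the lowest of the 35 it was 6.70%. Those 11829 genes were not otherwise matched to the 35 in level. Hdac7, Sirt5, Hdac1, Kat2b and Hdac10 varied more than the median of all genes tested. HA replicate 3 was the highest library for 8 of the 35 genes, more than any other library.

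The comparison of HP with LP asked whether the diet of the dam went with a different level of these transcripts in the pup. None of the 35 genes passed an adjusted p of 0.05 in edgeR's quasi-likelihood test, beside 2 of all 17546 genes (0.0114%). DESeq2 and limma-voom also called 0 of the 35. Estimates were spread evenly around 0, with 18 higher and 17 lower in HP, a median log2 fold change of 0.012 (-0.0024 over all genes) and a range of -0.26 to 0.19. An unadjusted p under 0.05 was found for 2 genes, Hdac2 and Sirt5, beside 6.12% of all genes. The count was 5 without HP replicate 3 and 1 without HP replicate 2.

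Hdac2 (ENSMUSG00000019777, protein-coding, chromosome 10, 36974544 to 37001889, GRCm38, plus strand) was at 96.0, 95.04 and 86.6 CPM in LP replicates 1 to 3. It was at 99.7, 102.6 and 103.5 CPM in HP and at 95.3, 96.0 and 97.7 CPM in HA. The 3 HP libraries lay above all 6 others, and LP replicate 3 was the lowest. The log2 fold change of HP against LP was 0.14 (SE 0.046), a 1.10-fold difference with a 95% interval of 1.03 to 1.18, and it missed the threshold (adjusted p = 0.765, unadjusted p = 0.0133, edgeR). Without LP replicate 3 it was 0.09 (adjusted p = 0.918, unadjusted p = 0.0513, edgeR). HA against HP gave -0.08 (SE 0.046, adjusted p = 0.84, edgeR), a comparison that shares the HP libraries with the one before.

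Sirt5 (ENSMUSG00000054021, protein-coding, chromosome 13, 43365496 to 43395203, GRCm38, plus strand) was at 11.6, 12.6 and 10.7 CPM in LP replicates 1 to 3. In HP it was at 9.07, 9.90 and 10.3 CPM, and in HA at 12.8, 11.2 and 11.3 CPM. The HP libraries were the lowest 3 of the 9, while LP and HA overlapped. HP against LP gave an estimated log2 fold change of -0.26 (SE 0.11, adjusted p = 0.81, unadjusted p = 0.0409, edgeR), and HA against HP gave 0.27 (SE 0.11, adjusted p = 0.84, unadjusted p = 0.031, edgeR). Both differences rest on the same 3 HP libraries, so they are not separate evidence. Without HP replicate 1, the lowest library, they were -0.20 (unadjusted p = 0.13) and 0.22 (unadjusted p = 0.106) in edgeR. Sirt5 shares 7.003% of its 50-base stretches with Wdr31 and 5.60% with Gm47652, and its mean count was 217 per library.

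Crebbp (ENSMUSG00000022521, chromosome 16, 4081328 to 4213997, GRCm38, minus strand), the CBP acetyltransferase, was at 63.5, 57.8 and 59.0 CPM in LP replicates 1 to 3. It was at 54.4, 57.1 and 54.5 CPM in HP and at 53.2, 60.1 and 57.3 CPM in HA. HP lay just under LP without overlap, and HA overlapped both. The log2 fold change of HP against LP was -0.12 (SE 0.060, adjusted p = 0.829, edgeR). Brd2, which binds acetylated histone tails, also lay under LP without overlap, at 260.1, 256.6 and 249.3 CPM in LP replicates 1 to 3 and 243.6, 241.0 and 248.2 CPM in HP. It was at 241.9, 233.0 and 250.9 CPM in HA. Its estimate was -0.06 (SE 0.038, adjusted p = 0.872, edgeR). In all, 1 of the 35 genes was higher without overlap and 3 were lower, beside 5.93% and 5.83% of all genes.

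**Figure D2:**
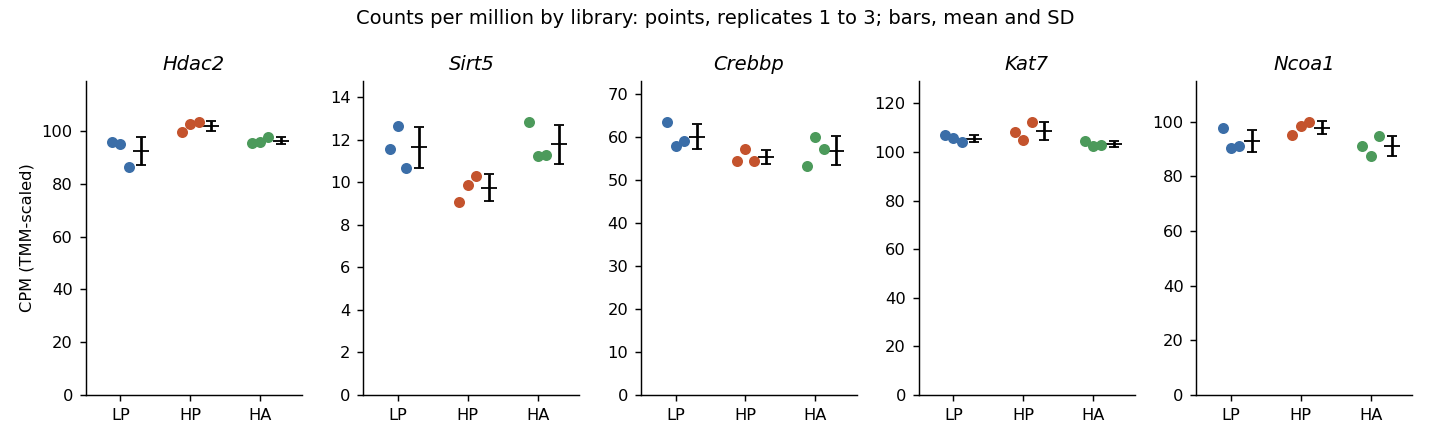
CPM of Hdac2, Sirt5, Crebbp, Kat7 and Ncoa1 by group, with 1 point per library in the order of replicates 1 to 3 and, at the right of each group, the mean with its SD (n = 3). In HP, Hdac2 stands at 99.7 to 103.5 CPM above both other groups and Sirt5 at 9.07 to 10.3 CPM below them, on axes that start at 0.

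The comparison of HA with HP asked whether 4-PBA went with a different level of these transcripts under the diet high in fat and sucrose. None of the 35 passed the threshold in edgeR, DESeq2 or limma-voom, beside 2 of all 17546 genes in edgeR (0.0114%). In edgeR 19 estimates were higher and 16 lower in HA, with a median log2 fold change of 0.011 (0.0027 over all genes) and a range of -0.19 to 0.27. Sirt5 was the single gene with an unadjusted p under 0.05, beside 5.42% of all genes. The count was 2 without LP replicate 1, 2 without LP replicate 2 and 2 without HP replicate 3, and it was 3 without HA replicate 1 or HA replicate 3. Without HP replicate 1, HP replicate 2 or HA replicate 1, Sirt5 was not among the genes counted. Sirt5 was higher in HA without overlap, and Hdac2, Kat7 and Ncoa1 were lower, beside 5.92% and 5.89% of all genes.

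Kat7 (ENSMUSG00000038909, chromosome 11, 95274259 to 95310246, GRCm38, minus strand), the enzyme of the HBO1 complexes, was one of the steadiest of the 35. It was at 106.8, 105.9 and 104.0 CPM in LP replicates 1 to 3, at 108.1, 105.0 and 112.4 CPM in HP, and at 104.6, 102.3 and 102.9 CPM in HA. The gap between HP and HA was less than 1 CPM. The log2 fold change of HA against HP was -0.07 (SE 0.039, adjusted p = 0.84, edgeR).

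Ncoa1 (ENSMUSG00000020647, chromosome 12, 4247362 to 4477182, GRCm38, minus strand), a coactivator of steroid and thyroid hormone receptors, was at 97.7, 90.3 and 91.2 CPM in LP replicates 1 to 3. It was at 95.2, 98.6 and 99.9 CPM in HP and at 91.0, 87.5 and 94.8 CPM in HA. HA lay under HP by a margin of less than 1 CPM, and LP overlapped both. The log2 fold change of HA against HP was -0.10 (SE 0.048, adjusted p = 0.84, unadjusted p = 0.0546, edgeR). Within the 6 libraries of these groups, with the title code as a term, it was -0.10 (adjusted p = 0.755, unadjusted p = 0.0489, edgeR), the single gene of the 35 under 0.05 in that fit.

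The zinc-dependent deacetylases, the class of enzyme that 4-PBA is known to inhibit, did not share a direction. Their estimates of HA against HP in class I were 0.12 for Hdac1, -0.08 for Hdac2, 0.07 for Hdac3 and -0.19 for Hdac8 on the log2 scale. Hdac8 was at 18.5, 18.5 and 16.0 CPM in HP and 15.2, 16.2 and 14.8 CPM in HA, overlapping by 1 library (adjusted p = 0.84, edgeR). Hdac5 was at 171.6, 177.4 and 159.6 CPM in LP replicates 1 to 3, at 186.6, 167.7 and 177.3 CPM in HP, and at 170.3, 171.4 and 164.3 CPM in HA. All 3 groups overlapped, with an estimated log2 fold change of -0.07 (SE 0.052, adjusted p = 0.844, edgeR) for HA against HP. Hdac6 was at 64.4, 59.5 and 63.1 CPM across LP, 64.0, 56.5 and 59.9 CPM in HP, and 58.9, 67.2 and 58.1 CPM in HA. Its highest and lowest libraries came from HA and HP, and the estimate was 0.03 (SE 0.070, adjusted p = 0.954, edgeR).

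Ncor1, which activates Hdac3 in the NCoR complex, was at 179.4, 177.3 and 171.9 CPM in LP replicates 1 to 3, at 179.4, 181.1 and 177.2 CPM in HP, and at 166.6, 180.3 and 182.3 CPM in HA. HA replicates 1 and 3 were the lowest and the highest of the 9 libraries. The log2 fold change of HA against HP was -0.02 (SE 0.042, adjusted p = 0.936, edgeR).

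In the comparison of HA with LP, which differ in both diet and injection, 0 of the 35 genes passed the threshold in edgeR, DESeq2 or limma-voom, beside 0 of all genes in edgeR (0%). None had an unadjusted p under 0.05, beside 6.51% of all genes, and none lay without overlap, beside 5.4% higher and 5.51% lower over all genes. Estimates were split 17 higher and 18 lower, or 21 of 35 higher when scaled by library totals. The median was -0.0010 (0.0057 over all genes), and the range -0.09 to 0.20. Kat6a had the smallest p, with an estimated log2 fold change of 0.12 (SE 0.058, adjusted p = 0.785, edgeR). The count with an unadjusted p under 0.05 was 2 without LP replicate 3, namely Hdac7 and Sirt6, and 1 without HA replicate 2 or HA replicate 3.

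The intervals limit how large a difference the data allow. In every comparison the 95% intervals of all 35 genes lay within 1.5-fold in either direction, from 0.708 to 1.32 for HP against LP. They ran from 0.750 to 1.43 in the comparison of HA with HP, and from 0.806 to 1.41 in that of HA with LP. Within 1.25-fold lay 30, 27 and 30 of the 35 in these comparisons. Both bounds were chosen after the estimates were seen, and each interval stands for its gene alone, with no allowance for the number of genes.

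**Figure D3:**
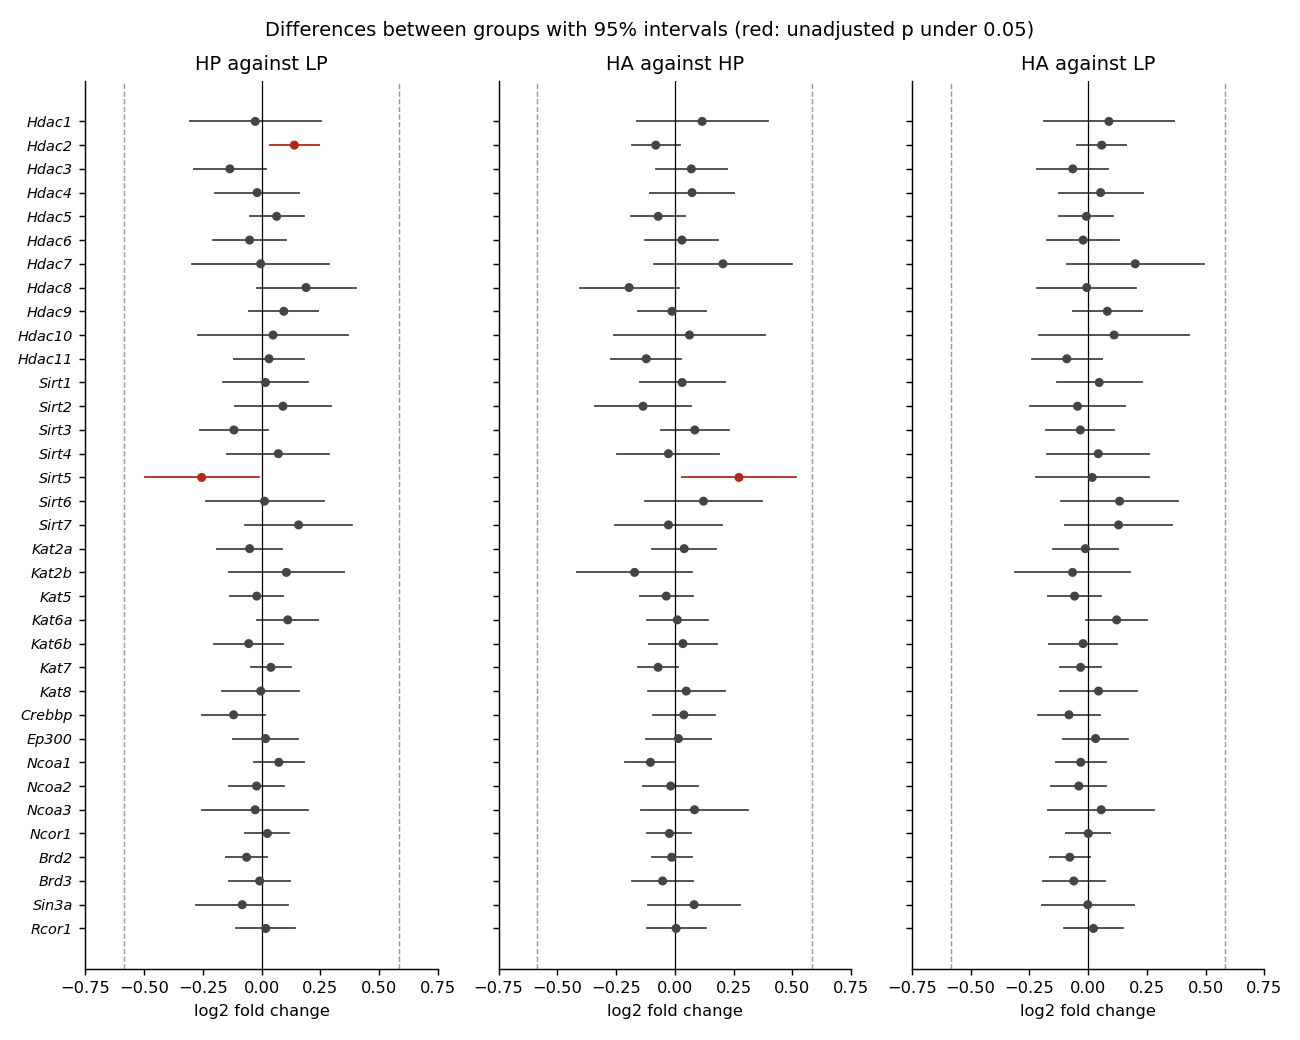
Log2 fold change of the 35 genes in each comparison with its 95% interval from edgeR, in red where the unadjusted p is under 0.05 (Hdac2 and Sirt5). Dashed lines mark 1.5-fold in either direction, and all intervals lie between them.

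Levels of 3 of the genes were set beside cell type markers, a choice made after their values were seen. Sirt2 was at 370.6, 420.5 and 362.8 CPM in LP replicates 1 to 3, at 430.5, 401.5 and 396.9 CPM in HP, and at 423.1, 371.9 and 323.6 CPM in HA. The sum of all 7 oligodendrocyte markers, none of them at 0, was 13314 to 20719 CPM in LP, 17245 to 20668 CPM in HP and 11705 to 19829 CPM in HA. Sirt2 was at 396.9 CPM or more in the 5 libraries with a marker sum of 17245 CPM or more, and at 371.9 CPM or less in the other 4. Sirt2 differed by -0.14 (SE 0.091, adjusted p = 0.84, edgeR) in HA against HP on the log2 scale, and the part of oligodendrocytes in that value was not tested.

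Hdac11 was at 308.1, 296.2 and 279.3 CPM in LP replicates 1 to 3, at 311.1, 278.9 and 313.2 CPM in HP, and at 296.6, 280.0 and 253.4 CPM in HA. It too was lowest in HA replicate 3, the library with the lowest oligodendrocyte marker sum, but LP replicate 1 combined a high Hdac11 level with a low oligodendrocyte marker sum. The log2 fold change of HA against HP was -0.12 (SE 0.067, adjusted p = 0.84, edgeR), and the part of oligodendrocytes was not tested.

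Hdac7, a class IIa enzyme known from blood vessels, was at 29.4, 29.3 and 39.6 CPM in LP replicates 1 to 3. It was at 30.0, 35.1 and 32.7 CPM in HP and at 32.2, 40.6 and 40.1 CPM in HA. LP replicate 3 and HA replicate 3, the libraries high in meningeal markers, were among the 3 highest, and the other of the 3, HA replicate 2, had a meningeal sum of 93.9 CPM. HA against LP gave 0.20 (SE 0.13, adjusted p = 0.828, edgeR), and 0.36 without LP replicate 3 (adjusted p = 0.491, unadjusted p = 0.00846, edgeR). The 6 endothelial markers summed to 210 to 248 CPM in LP, 221 to 245 CPM in HP and 225 to 282 CPM in HA. The part of either cell type in the Hdac7 level was not tested.

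**Figure D4:**
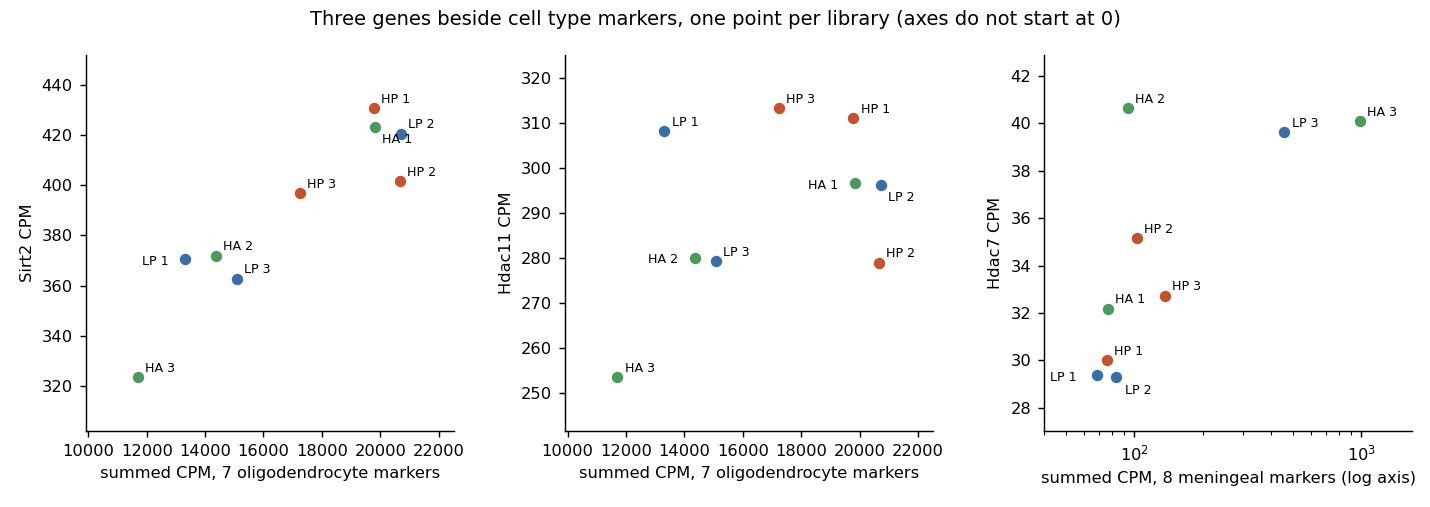
CPM of Sirt2 and Hdac11 against the summed CPM of 7 oligodendrocyte markers, and of Hdac7 against that of 8 meningeal markers (log axis), 1 point per library. HA replicate 3 stands lowest for Sirt2 and Hdac11, with an oligodendrocyte marker sum of 11705 CPM, and LP replicate 3 and HA replicate 3 stand at the right of the Hdac7 plot.

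Other genes of the pathway were followed in 6 lists. No gene of any list passed the threshold in any comparison in edgeR. Over all genes, an unadjusted p under 0.05 was found upward and downward for 3.12% and 3% in HP against LP. These shares were 3% and 2.42% with HA against HP, and 3.06% and 3.45% with HA against LP. Of the 38 partners in corepressor complexes, 2 had an unadjusted p under 0.05 upward and 2 downward for HP against LP, with a median log2 fold change of -0.014. The counts were 1 and 0 for HA against HP, and 2 and 0 for HA against LP. Sin3b, the paralogue of Sin3a, was at 89.1, 89.2 and 89.3 CPM in LP replicates 1 to 3, at 96.0, 100.9 and 98.9 CPM in HP, and at 97.6, 99.0 and 94.7 CPM in HA. LP lay under both other groups, with an estimated log2 fold change of 0.14 (SE 0.038, adjusted p = 0.628, edgeR) for HP against LP. Mta3, a NuRD subunit, gave 0.16 (SE 0.050, adjusted p = 0.736, edgeR) in the same comparison. For HA against HP, Gps2, a subunit of the NCoR complex, stood at 15.4, 15.4 and 15.5 CPM in HP and 17.5, 17.5 and 18.3 CPM in HA (adjusted p = 0.84, edgeR).

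Of the 51 partners of acetyltransferases and further acetyltransferase genes, 1 was higher and 2 lower at an unadjusted p under 0.05 for HP against LP. The counts were 0 and 1 in HA against HP, and 1 and 2 in HA against LP. Supt20, a SAGA subunit, was at 33.6, 37.0 and 35.7 CPM in LP replicates 1 to 3, at 36.8, 37.9 and 38.1 CPM in HP, and at 40.8, 41.3 and 39.6 CPM in HA. HA lay above both other groups, with 0.20 (SE 0.055, adjusted p = 0.645, edgeR) against LP. Mcrs1, a subunit of the NSL complex, gave -0.13 (SE 0.056, adjusted p = 0.815, edgeR) for HP against LP.

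Of 30 genes listed here as other acetyl-lysine readers, 1 was higher and 0 lower at an unadjusted p under 0.05 for HP against LP. Whether each of them binds acetyl-lysine was not checked. The counts were 2 and 1 in HA against HP, and 2 and 0 in HA against LP. Zmynd11 was at 146.4, 144.8 and 149.0 CPM in LP replicates 1 to 3 and at 156.2, 157.6 and 155.7 CPM in HP, without overlap (log2 fold change 0.09, SE 0.038, adjusted p = 0.807, edgeR). In HA it was at 146.5, 141.2 and 153.0 CPM, below HP in all libraries. Cecr2, a bromodomain protein of chromatin remodelling complexes, was at 5.16, 4.41 and 5.48 CPM in LP replicates 1 to 3, at 4.34, 5.03 and 5.18 CPM in HP, and at 5.80, 7.17 and 6.39 CPM in HA. HA lay above both other groups, with 0.41 (SE 0.15, adjusted p = 0.84, edgeR) against HP and 0.36 (SE 0.15, adjusted p = 0.756, edgeR) against LP. Baz2a, which helps to silence ribosomal RNA genes, was at 66.0, 65.9 and 65.5 CPM in HP and 72.1, 73.6 and 70.2 CPM in HA, an estimate of 0.13 (SE 0.047, adjusted p = 0.84, edgeR). For HA against LP, Bptf, the large subunit of the NURF remodeller, gave 0.13 (SE 0.047, adjusted p = 0.756, edgeR).

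The 20 genes that supply acetyl-CoA and NAD had median log2 fold changes of 0.0091 for HP against LP, 0.0027 when HA was set against HP, and -0.012 when it was set against LP. An unadjusted p under 0.05 was found for 2 of them, both in HA against HP: Nmnat1, a nuclear NAD synthase, and Acacb, an acetyl-CoA carboxylase. Nmnat1 was at 4.40, 3.73 and 3.97 CPM in HP and 5.02, 5.08 and 5.49 CPM in HA (adjusted p = 0.84, edgeR).

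Of the 17 class IIa partners and kinases, 16 were tested. At an unadjusted p under 0.05, 0 were higher and 2 lower for HP against LP, 1 and 0 for HA against HP, and 1 and 2 for HA against LP. Camk4, a kinase that phosphorylates class IIa enzymes, was at 85.2, 94.1 and 68.5 CPM in LP replicates 1 to 3, at 71.5, 65.0 and 65.7 CPM in HP, and at 68.5, 67.5 and 56.0 CPM in HA. The 2 high libraries, LP replicates 1 and 2, were the 2 with high striatal markers, and the part of striatal tissue was not tested. Its log2 fold change for HP against LP was -0.29 (SE 0.11, adjusted p = 0.807, edgeR). Sik1, another such kinase, was at 29.9, 29.8 and 31.1 CPM across LP, 28.6, 29.8 and 27.6 CPM in HP, and 34.3, 32.3 and 39.5 CPM in HA. HA lay above both other groups, at 0.30 (SE 0.078, adjusted p = 0.84, edgeR) against HP.

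The last list held 13 genes known to rise when deacetylases are inhibited in cultured cells. For HA against HP, 4 estimates were higher and 9 lower, with a median log2 fold change of -0.15 beside 0.0027 over all genes, and 1 was higher and 4 lower at an unadjusted p under 0.05. That median is the estimate of Hspa1a (SE 0.29, adjusted p = 0.939, edgeR), a gene at 2.24 to 6.87 CPM. For HA against LP, 7 were higher and 6 lower, with a median of 0.014 beside 0.0057 over all genes. At an unadjusted p under 0.05, 0 were higher and 2 lower there. For HP against LP, 8 were higher and 5 lower, with a median of 0.023 beside -0.0024 over all genes. None passed after adjustment. Cdkn1a, the cell cycle inhibitor p21 and a classical target of these inhibitors, was at 52.6, 52.1 and 58.7 CPM in LP replicates 1 to 3, at 53.1, 56.9 and 53.6 CPM in HP, and at 44.6, 47.9 and 49.5 CPM in HA. HA lay below both other groups, with -0.21 (SE 0.065, adjusted p = 0.84, edgeR) against HP and -0.20 (SE 0.065, adjusted p = 0.697, edgeR) against LP. Mt1, a metallothionein, was at 225.7, 267.8 and 253.4 CPM in LP replicates 1 to 3 and at 259.1, 282.5 and 282.5 CPM in HP. In HA it was at 237.1, 244.0 and 229.7 CPM, an estimated log2 fold change of -0.21 (SE 0.063, adjusted p = 0.84, edgeR) against HP.

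The heat shock gene Hspa1b was at 12.9, 19.8 and 16.9 CPM in LP replicates 1 to 3, at 26.8, 29.3 and 24.8 CPM in HP, and at 16.5, 15.03 and 26.6 CPM in HA. HP lay above LP in all libraries, and HA replicate 3 reached the HP range. The estimates were 0.71 (SE 0.21, adjusted p = 0.727, edgeR) for HP against LP and -0.48 (SE 0.21, adjusted p = 0.84, edgeR) for HA against HP, from the same HP libraries. Hspa1a and Hspa1b are near-identical copies, so reads could have been split between them. For HP against LP the 4 genes with an unadjusted p under 0.05 were Hspa1b, Hspa1a, Mt1 and Mt2, all higher in HP. These last 2, and Rhob and Clu among the genes with an unadjusted p under 0.05 for HA against HP, are named after their values were seen. Clu, a secreted chaperone, was the higher one, at 684, 711 and 663 CPM in HP and 734, 736 and 788 CPM in HA. Its LP libraries, at 731, 715 and 748 CPM, overlapped those of HA.

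**Figure D5:**
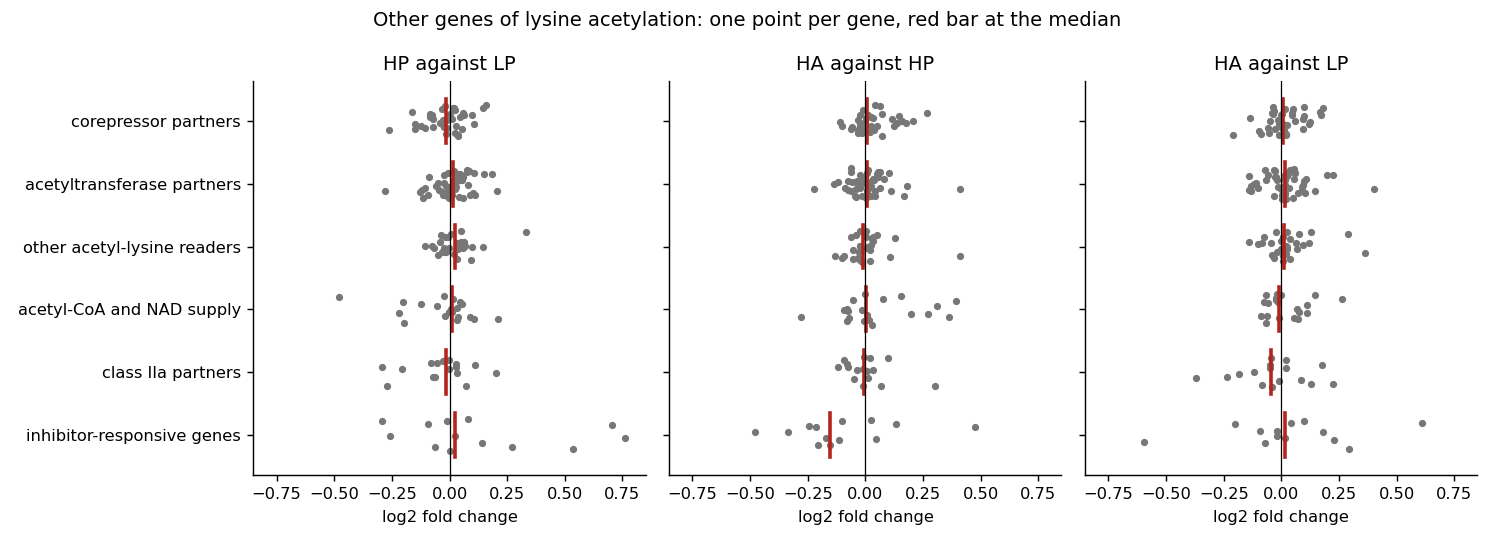
Log2 fold change of the genes in the 6 lists for each comparison, 1 point per gene, with a red bar at the median. Medians lie within 0.05 of 0 except for the inhibitor-responsive genes in HA against HP, where the median is -0.15 and 9 of 13 points lie below 0. That median is the estimate of Hspa1a, a gene at 2.24 to 6.87 CPM.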

How the data were processed

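RNA of the hypothalamus was sequenced from 9 libraries prepared from 3 µg of total RNA with a NEBNext Ultra kit, per the labels' protocols. The authors deposited whole-number read counts per gene, which are not normalized. The authors also deposited FPKM values per gene, used here to compare levels between genes and to sum genes by role in each library and group. The submitters' processing notes list featureCounts 1.5.0-p3, HISAT2 2.0.5 and DESeq2 1.16.1 as tools and mm9 as build. In the deposited table, however, 98.3% of the 54409 identifiers also in GENCODE M21 (GRCm38) had the coordinates given there, so GRCm38 is used (33 of the 35 genes matched, and Hdac3 and Kat5 differed in extent).

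The deposited counts were tested with edgeR 4.0.16 in R 4.3.3 (filterByExpr with a minimum count of 10, TMM scaling, quasi-likelihood F test, 9 libraries, group as the only term), two-sided, with Benjamini-Hochberg adjustment over 17546 genes and a threshold of 0.05. CPM values use TMM-scaled totals. The SE is the size of the log2 fold change divided by the square root of F. Intervals are at 95%. An exact permutation test of 3 against 3 libraries cannot go below 0.1, so none was used for single genes. Counts of libraries within a group differed by more than sampling noise (chi-square per degree of freedom 4.73 to 25.83, genes with at least 20 counts), so all were kept. The test code was run on simulated counts with the same spread for every gene, which does not measure its power in these data.

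The members and lists were chosen with earlier results of these data known. Values in every library, SE and adjusted p are given for members with p under 0.05 in any comparison, for members without overlap between groups at p under 0.1, and for the most abundant member of each other role. From each list, the 2 genes of smallest p per comparison could be named. Some genes that could be named are not reported here. Shared 50-base stretches and exon overlaps were computed from GENCODE M21. Same-numbered libraries were checked for pairing by the correlation of their deviations from the group means. It was 0.256, 0.144 and 0.486 for HA against LP, where the numbers may pair libraries, although libraries of different number reached 0.251. The value of 0.486 joins LP replicate 3 and HA replicate 3, the libraries high in meningeal markers, and the part of meningeal tissue in it was not tested. With the replicate block 0 genes were called for HA against LP, as without it. For the other comparisons it was between -0.028 and 0.159, and the numbers were taken as names. Alternatives covered DESeq2 1.42.0 (on unfiltered counts and on the genes of the main filter), limma-voom (limma 3.58.1), scaling, the filter, the replicate block, the libraries fitted, the title code and leaving out libraries.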

Additional observations from a re-analysis of the deposited data

How the results depend on the processing

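Under 18 alternatives (19 for HA against HP, with the title code as a term), 0 of the 35 genes passed an adjusted p of 0.05. The smallest adjusted p was 0.597 for HP against LP, 0.626 in HA against HP and 0.491 in HA against LP. The median log2 fold change of all genes stayed within 0.022 of 0. Counts of all genes called depended on the setting. For HP against LP, 2 genes became 1 with library totals, 53 with a filter of at least 1 count, 32 with DESeq2 on unfiltered counts (34 on the genes of the main filter, an alternative chosen after seeing the data), 4 with the replicate block, 4 with only the 2 groups compared and 37 without LP replicate 3 and HA replicate 3 together. They lay between 1 and 21 leaving out 1 library (21 without LP replicate 3). For HA against HP, 2 became 5 with the filter, 7 with DESeq2 under either filter and 10 without both libraries, and lay between 1 and 9 leaving out 1 library (9 without HA replicate 3). With the replicate block 2 were called. For HA against LP, 0 became 41 with the filter, 25 with DESeq2 on unfiltered counts (28 on the genes of the main filter), 1 with only the 2 groups compared and 23 without both libraries, and lay between 0 and 14 leaving out 1 library (14 without LP replicate 3). The cause of these shifts was not tested.

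The number of the 35 with an unadjusted p under 0.05 was 2 for HP against LP and became 1 with DESeq2 under either filter, 1 with only the 2 groups compared, 4 without both libraries and 1 to 5 leaving out 1 library. For HA against HP, 1 became 0 with the filter, 0 with DESeq2 under either filter, 3 without both libraries and 1 to 3 leaving out 1 library. For HA against LP, 0 became 1 with library totals, 3 without both libraries and 0 to 2 leaving out 1 library.

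For 10 genes followed in all 3 comparisons under every alternative, 25 estimates turned sign and 525 did not. None of the 25 was past a threshold. They were 2 in HP against LP, 5 in HA against HP and 18 in HA against LP. For HP against LP, Hdac11 was -0.0052 without both libraries and -0.0051 to 0.082 leaving out 1 library. For HA against HP, leaving out 1 library gave -0.035 to 0.073 for Hdac6, -0.044 to 0.012 for Ncor1 and -0.037 to 0.017 for Brd2, which was 0.0061 with library totals. For HA against LP, leaving out 1 library gave -0.059 to 0.0027 for Ncoa1, -0.052 to 0.078 for Sirt5, -0.044 to 0.024 for Hdac5, -0.088 to 0.018 for Hdac6 and -0.022 to 0.038 for Ncor1. Without both libraries Sirt5 was -0.0044, Hdac6 0.029 and Ncor1 -0.037 there. Hdac5 was 0.0081 with library totals and Ncor1 -0.00056 with limma-voom. With the replicate block none of the 35 passed an adjusted p of 0.05, as without it. The 2 with an unadjusted p under 0.05 for HP against LP were then Hdac2 and Hdac3 in place of Hdac2 and Sirt5, and likewise with the filter of at least 1 count. Precision differed between genes: the SE in each comparison was 0.14 for Hdac10 at a mean count of 122, 0.13 for Hdac7 at 668, 0.091 for Sirt2 at 7614 and 0.039 for Kat7 at 2066, so it did not follow the count alone.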
